A study of Mus musculus with 6 samples.

Results

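The Rab GTPases were examined in cultured mouse fetal liver macrophages with and without a working Ahrr gene. Members were the protein-coding rows of the annotated expression table named Rab followed by a number and, where present, a letter, so that interacting and regulatory proteins were left out. The rule uses names and gene type, within a table limited to genes with at least 10 counts in total. The rule found 50 genes of 16111 rows, of which 12405 are protein-coding. Of these 50 genes, 43 had enough reads to be tested, and 7 were too low. The annotation holds 59 such genes, and the other 9 (Rab3c, Rab9b, Rab17, Rab26, Rab27b, Rab30, Rab33a, Rab39b and Rab40b) were not analysed here.

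Ahrr encodes the repressor of the aryl hydrocarbon receptor, a ligand-activated transcription factor, and the design compares cells with and without it. Wild-type (3 libraries) and AhRR-/- cells (3 libraries, labelled Ahrr) came from E13.5 fetuses, and both groups are labelled C57BL/6 RCC. Culture lasted 5 weeks with 2% GM-CSF, which supports macrophage growth, and only non-adherent cells were taken. The labels number the mice 1 to 3 within each genotype and do not say how fetuses were pooled or how the allele was made. The p-values set the genotype difference against the spread between libraries of the same genotype. Whether that spread is between animals or between pools is therefore not known.

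Rab proteins are small GTPases that give membranes their identity. Bound to GTP they sit on a membrane through lipid-modified cysteines at the carboxyl end and recruit effectors, among them tethers, motors and kinases. Exchange factors (GEFs) load them with GTP, GTPase-activating proteins (GAPs) switch them off, and the GDP-bound form is extracted from the membrane. In macrophages they direct the phagosome from its early stage, marked by Rab5, to fusion with lysosomes, marked by Rab7, and they carry receptors and cytokines to the surface.

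Library totals ran from 3556106 counts (Ahrr-deficient replicate 1) to 41668336 counts (Ahrr-deficient replicate 2). Levels below are counts scaled by the TMM-adjusted library total (CPM), listed for replicates 1, 2 and 3, and fold changes are Ahrr-deficient over wild-type on the log2 scale from edgeR's quasi-likelihood test, adjusted over all 11408 tested genes, with a call at an adjusted p under 0.05. Ahrr itself fell from 4.85 ± 0.32 to 1.96 ± 0.69 CPM (SD, n = 3), with a log2 fold change of -1.21 and an adjusted p of 0.0151. Reads remained in all 3 Ahrr-deficient libraries (8, 107 and 12 counts), and the labels do not say which part of the gene is missing. Wild-type replicate 2 held 5.28% of its counts in the ribosomal RNA gene CT010467.1. All 8 listed macrophage markers were present, with sums between 23306 and 26066 CPM for wild-type libraries and between 14575 and 22209 CPM for the others, and of these Csf1r was past the threshold and lower. The sums came mostly from Lyz2, and the log2 fold changes of the 8 genes ran from -0.65 (Csf1r) to -0.06 (Spi1). The lists for lymphocytes and for mast cells and basophils had 0 of 8 genes among the rows. Those for neutrophils (2 of 8), erythroid cells (2 of 8) and stroma and endothelium (3 of 8) summed to at most 2.63 CPM in any library. The dendritic list (4 of 8) summed to 56.4 to 67.9 CPM (wild-type) and 70.1 to 92.7 CPM (Ahrr-deficient), mostly from Clec9a, which was called higher, while Flt3, Ccr7, Cd209a and Siglech were not among the rows. The megakaryocyte list (3 of 8, mostly Vwf, which was called higher while Itga2b was called lower) summed to 170 to 214 and 222 to 311 CPM, with Pf4, Gp9, Ppbp and Gp6 not among the rows. The hepatocyte list (3 of 8, mostly Trf, which was called lower) summed to 163 to 186 and 86.2 to 119 CPM, with Alb, Apoa1, Fgb, Serpina1a and Ttr not among the rows. The alveolar macrophage list (8 of 8, mostly Chil3) summed to 37598 to 40624 and 34022 to 37065 CPM. Car4 and Pparg were called higher, with log2 fold changes of 3.10 and 0.64. The other tested genes of this list were not called. Their log2 fold changes were -0.61 for Ear2, -0.53 for Fabp4, -0.51 for Marco, -0.13 for Chil3 and 0.39 for Siglecf. The part of these markers in the Rab results was not tested, and in bulk RNA fewer cells of a type and less RNA per cell cannot be told apart.

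Of the 43 tested Rab genes, 13 (30.2%) differed between the genotypes, against a background of 19.6% of all tested genes. Higher in Ahrr-deficient cells were 8 (background 9.62%), namely Rab31, Rab32, Rab3d, Rab6a, Rab8b, Rab10, Rab1a and Rab14. Lower were 5 (background 9.95%), namely Rab34, Rab27a, Rab13, Rab44 and Rab20. Every called change was below 2-fold: the called log2 fold changes lay between -0.75 (Rab34) and 0.71 (Rab31), whereas 23.1% of all called genes changed at least 2-fold. The median log2 fold change of the tested Rab genes was 0.02, beside 0.01 for all tested genes, and it took the other sign, at -0.01, with upper-quartile scaling. The same 8 and 5 genes were called with median-of-ratios and with upper-quartile scaling. Tested Rab genes were read more deeply than most, with a median of 834 counts per library against 417 for all tested genes. Among genes with a mean of at least 50 counts, 13 of 40 Rab genes were called, against 19.6% of all such genes. With DESeq2 13 Rab genes were called (background 17.5%), and with limma-voom 16 (background 24.1%).

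**Figure D1:**
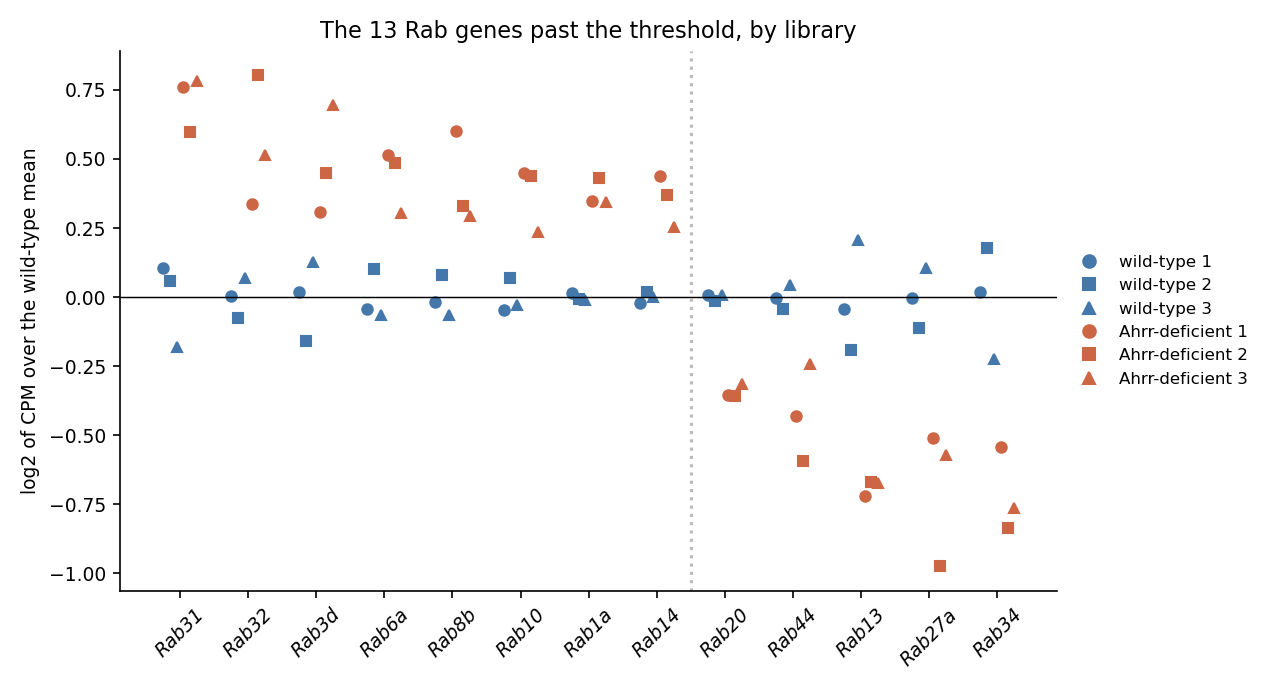
Level of each of the 13 called Rab genes in each of the 6 libraries, as log2 of CPM over the wild-type mean of that gene (1 point per library, blue wild-type, orange Ahrr-deficient). The Ahrr-deficient points lie on 1 side of the wild-type points for each gene, above them for the 8 genes on the left and below them for the 5 on the right.

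The libraries of the groups did not overlap for any of the 13 called genes, and for 22 of the 43 tested Rab genes in all, against 38.8% of all tested genes. Of the same 43 tested genes, the Ahrr-deficient libraries lay above for 13 (background 19.2% of all tested genes) and below for 9 (background 19.6%). How many genes passed the threshold depended on single libraries. Without wild-type replicate 1, 2 or 3 there were 2, 4 and 5 called Rab genes (backgrounds 6.07%, 8.15% and 9.35%). Without Ahrr-deficient replicate 1, the shallowest library, there were 22 (background 32.6%), and without Ahrr-deficient replicate 2 or 3 there were 6 and 9 (backgrounds 8.31% and 10.3%). Rab31 and Rab34 kept their call in each of these 6 fits. Summed over the 50 genes, Rab transcripts made up 3504, 3479 and 3449 CPM of the wild-type libraries and 4008, 3924 and 3898 CPM of those without Ahrr, so that the sums did not overlap and the Ahrr-deficient mean was 1.13 times the wild-type mean. The sum weighs abundant genes most and was not tested. Of the 4 Rab genes highest in CPM, Rab8b, Rab14 and Rab1a were called higher and Rab5c was not called. The median log2 fold change of the tested Rab genes was 0.02.

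Promoter sequence was available from RefSeq (GRCm38.p6) for 42 of the 50 genes. It was read because AhR and its partner ARNT bind DNA at the core motif GCGTG, where the repressor competes with them. The 250 bases upstream of the start are shown for the genes with the largest rise (Rab31) and the largest fall (Rab34, the upstream of its 2 windows), and for the called gene with the most matches when the 50 bases after the start are counted too (Rab10), 5′ to 3′ on the gene's strand, with GCGTG or its complement CACGC in capitals.
Rab31 (chr17:65772753-65773002, minus strand): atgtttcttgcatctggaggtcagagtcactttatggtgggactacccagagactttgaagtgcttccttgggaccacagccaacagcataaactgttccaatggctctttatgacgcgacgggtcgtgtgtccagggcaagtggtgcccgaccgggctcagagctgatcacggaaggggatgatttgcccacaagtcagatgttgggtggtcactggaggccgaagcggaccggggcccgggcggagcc
Rab10 (chr12:3309970-3310219, minus strand): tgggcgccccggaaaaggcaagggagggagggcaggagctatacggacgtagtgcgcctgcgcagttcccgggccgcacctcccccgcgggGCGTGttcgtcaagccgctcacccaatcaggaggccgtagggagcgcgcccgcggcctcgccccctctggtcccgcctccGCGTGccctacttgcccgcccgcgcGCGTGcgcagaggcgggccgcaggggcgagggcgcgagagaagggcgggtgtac
Rab34 (chr11:78188177-78188426, plus strand): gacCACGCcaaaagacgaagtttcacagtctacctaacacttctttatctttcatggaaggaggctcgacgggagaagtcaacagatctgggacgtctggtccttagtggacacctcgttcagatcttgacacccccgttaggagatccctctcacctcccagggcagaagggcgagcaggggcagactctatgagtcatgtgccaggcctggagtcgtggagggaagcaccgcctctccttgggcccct
The window above Rab31 held 0 matches, that of Rab10 held 3, as did those of Rab14 and Rab20, and that of Rab34 held 1. Over the whole window of 250 bases before to 50 after the start, searched on both strands, GCGTG was found for 5 of the 8 higher genes, 3 of the 4 lower genes with a window and 11 of the 25 genes not called. It was found for 35.2% of all genes with a window and for 56.9% of tested genes with one. Some genes have more than 1 window, and a match in any of them counted. The 8 higher genes had 8 windows, the 4 lower genes 7 and the 25 genes not called 31. Rab27a and Rab34 each held GCGTG in only 1 of their 2 windows, so the shares of the groups rest on unequal lengths of sequence per gene. The longer form TNGCGTG, which contains the core, was present for Rab10, Rab34 and Rab21 among tested Rab genes and for 9.60% of tested genes. CACGTG, the E-box of the lysosomal MiT/TFE and the clock factors, was found for 6 of 37 tested Rab genes, among them Rab20 and Rab27a, and for 12.3% of tested genes. GAGGAAGT, a motif of the macrophage factor PU.1, was found for Rab32 and Rab2b and for 4.03% of tested genes. These matches are descriptions of the letters in the windows.

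Among Rabs of the early endosome and the entering phagosome, 10 genes were tested, of which 2 were higher and 1 lower. Rab31 (ENSMUSG00000056515.8, chr17:65651729-65772752, minus strand), a relative of Rab22a that works between the trans-Golgi network and early endosomes, had the largest rise of the family. It stood at 57.3, 55.5 and 47.0 CPM in the wild-type and 90.2, 80.5 and 91.6 CPM in the Ahrr-deficient libraries. The lowest Ahrr-deficient library was well above the highest wild-type one, and the rise from 53.3 ± 5.45 to 87.4 ± 6.02 CPM (SD, n = 3) gave a log2 fold change of 0.71 (SE 0.10, adjusted p 0.00374). It was past the threshold in all 16 alternative fits. Rab22a itself had a log2 fold change of 0.20 (adjusted p 0.184).

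Rab14 (ENSMUSG00000026878.16, chr2:35180205-35201120, minus strand), which acts between the Golgi and endosomes and on phagosomes, stood at 261, 268 and 265 CPM in the wild-type and 358, 342 and 315 CPM in the Ahrr-deficient libraries. All 3 Ahrr-deficient libraries exceeded the wild-type ones, which lay close together. Its log2 fold change was 0.35 (SE 0.09, adjusted p 0.0239). Rab20 (ENSMUSG00000031504.6, chr8:11453518-11478710, minus strand), a Rab of maturing phagosomes, moved the other way and stood at 55.8, 54.9 and 55.8 CPM in the wild-type and 43.4, 43.3 and 44.7 CPM in the Ahrr-deficient libraries. Both groups were tight and apart from each other, with a log2 fold change of -0.34 (SE 0.08, adjusted p 0.0192). An exon of E230013L22Rik overlaps Rab20 on the opposite strand, and whether reads were counted by strand is not given in the sources used here. Rab14 was called in 2 and Rab20 in 1 of the 6 fits that left out a library.

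The Rab5 genes, which start endosome fusion, showed no called change. Rab5c, the most abundant Rab gene per length, stood at 332, 299 and 316 CPM in the wild-type and 294, 321 and 347 CPM in the Ahrr-deficient libraries, and the groups overlapped. Its log2 fold change was 0.02 with a 95% interval of -0.20 to 0.24, and the intervals were -0.14 to 0.38 for Rab5a and -0.25 to 0.16 for Rab5b. Rab5c made up 73.0 ± 0.9% of the summed Rab5 level per length in wild-type and 72.9 ± 3.5% in Ahrr-deficient libraries (SD, n = 3). Log2 fold changes of the other tested genes of this group were 0.21 for Rab21, -0.05 for Rab4b and -0.55 for Rab4a, none past the threshold. Counts of Rab4b are uncertain, since 77.6% of the 75-base stretches of its transcript also lie in Gm21983. For Rab5b, 10.5% of these stretches also lie in Gm13991.

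**Figure D2:**
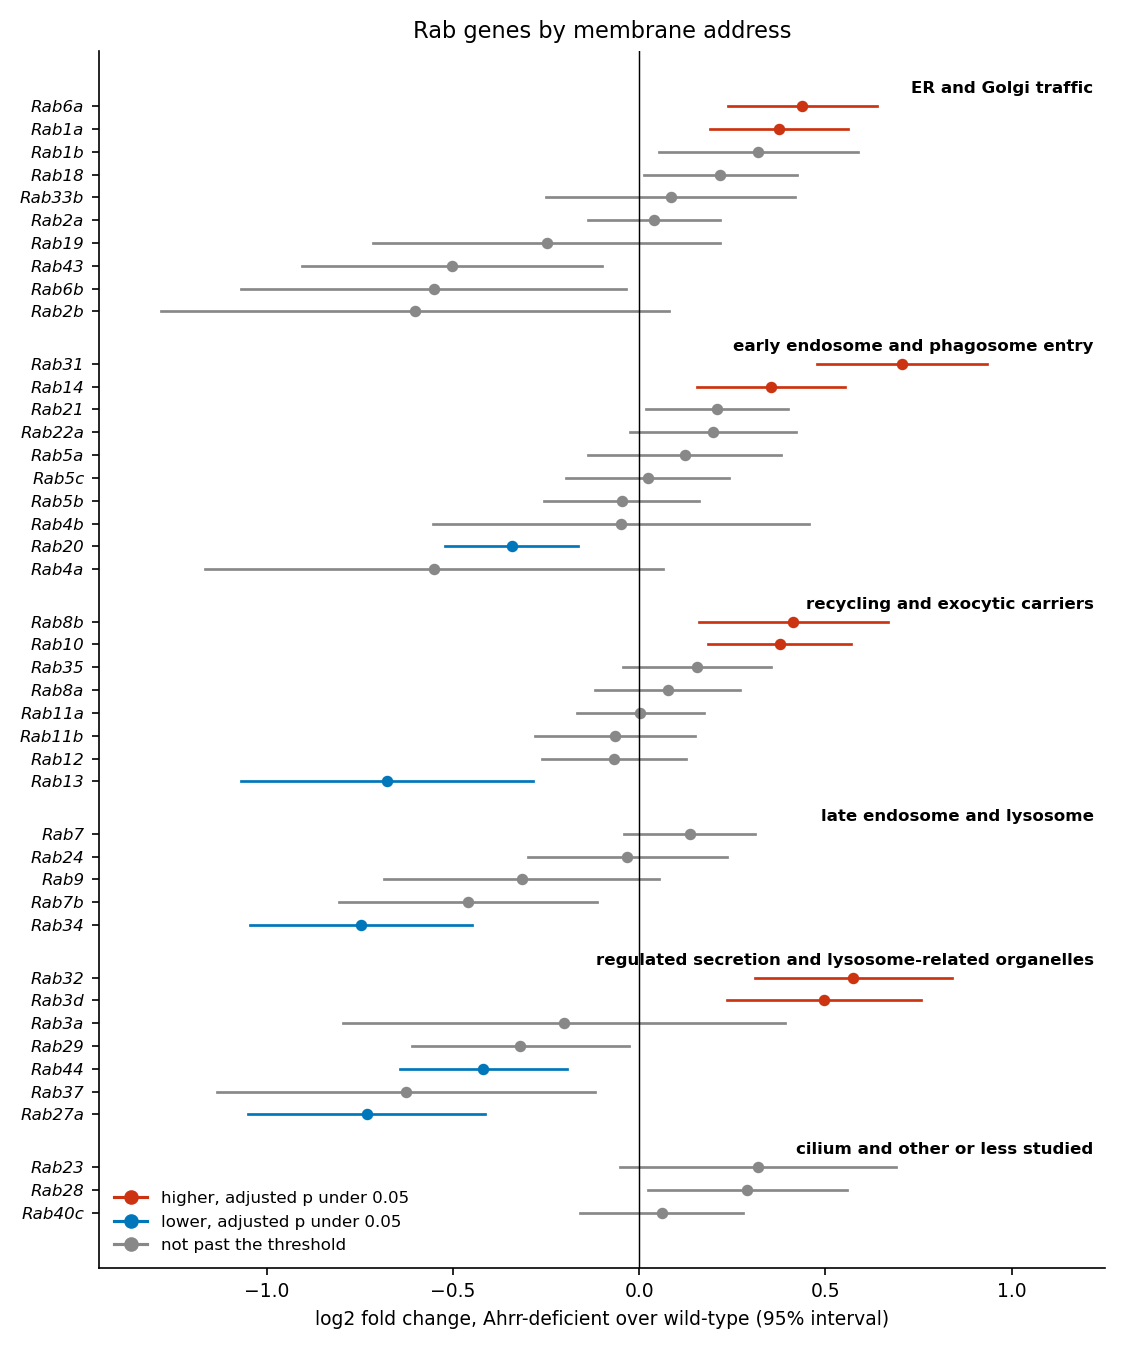
Log2 fold change of each of the 43 tested Rab genes with its 95% interval, grouped by the membranes on which the proteins are known to act (red higher, blue lower, grey not past the threshold). Called genes of both directions stand in 3 of the 6 groups. Over all groups called values run from -0.75 (Rab34) to 0.71 (Rab31), and the widest intervals belong to genes with few counts such as Rab2b and Rab4a.

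Of 10 tested Rabs of the endoplasmic reticulum and Golgi, 2 passed the threshold, both higher. Rab1a (ENSMUSG00000020149.17, chr11:20201432-20226856, plus strand), which tethers carriers from the endoplasmic reticulum at the Golgi, stood at 256, 252 and 252 CPM in the wild-type and 323, 342 and 322 CPM in the Ahrr-deficient libraries. The wild-type libraries were nearly equal and the Ahrr-deficient ones all higher, with a log2 fold change of 0.38 (SE 0.08, adjusted p 0.0157). Rab6a (ENSMUSG00000030704.14, chr7:100607410-100641268, plus strand), a Golgi Rab of retrograde transport and of carriers that leave for the surface, stood at 79.7, 88.3 and 78.7 CPM in the wild-type and 118, 115 and 102 CPM in the Ahrr-deficient libraries. The groups were apart, with a log2 fold change of 0.44 (SE 0.09, adjusted p 0.0120), and an exon of Mrpl48 overlaps Rab6a on the opposite strand. Rab1a was called in 2 and Rab6a in 4 of the 6 fits that left out a library.

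Close relatives of these genes were measured alongside. Rab1b stood at 184, 169 and 178 CPM in the wild-type and 180, 236 and 245 CPM in the Ahrr-deficient libraries, so that Ahrr-deficient replicate 1 lay among the wild-type libraries while replicates 2 and 3 lay above them. Its log2 fold change of 0.32 missed the threshold (adjusted p 0.0868), and it passed with offsets for GC content, at 0.49 (adjusted p 0.00754). Rab1a held 49.3 ± 0.9% of the summed Rab1 level per length in wild-type and 50.5 ± 4.0% in Ahrr-deficient libraries (SD, n = 3). Rab6b, the form best known from neurons, stood at 12.1, 14.4 and 8.23 CPM in the wild-type and 10.9, 7.69 and 6.48 CPM in the Ahrr-deficient libraries, with a log2 fold change of -0.55 that missed the threshold (adjusted p 0.117). The share of Rab6a in the summed Rab6 level was 91.2%, 90.5% and 93.7% in wild-type and 94.4%, 95.9% and 96.1% in Ahrr-deficient libraries, without overlap and without a test of the difference.

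Other Golgi and endoplasmic reticulum members were not past the threshold. Rab18, a Rab of lipid droplets and the endoplasmic reticulum, had a log2 fold change of 0.22 and Rab2a one of 0.04 (95% interval -0.14 to 0.22). Values were 0.08 for Rab33b, -0.25 for Rab19, -0.50 for Rab43 and -0.60 for Rab2b. Rab43 counts are uncertain because 90.3% of the 75-base stretches of its transcript also lie in Gm45140.

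Rabs of recycling endosomes and of carriers to the plasma membrane gave 2 higher and 1 lower of 8 tested genes. Rab8b (ENSMUSG00000036943.9, chr9:66843664-66919687, minus strand), one of the pair of Rab8 GTPases of polarised exocytosis, had the highest read count of the family and stood at 363, 387 and 350 CPM in the wild-type and 556, 461 and 450 CPM in the Ahrr-deficient libraries. Ahrr-deficient replicate 1 was the highest library, and all 3 Ahrr-deficient libraries were above the wild-type ones. Its log2 fold change was 0.41 (SE 0.11, adjusted p 0.0332). Its relative Rab8a stood at 116, 99.5 and 119 CPM in the wild-type and 119, 117 and 117 CPM in the Ahrr-deficient libraries, with overlapping groups and a log2 fold change of 0.08 (95% interval -0.12 to 0.27). Rab8b held 75.9 ± 2.7% of the summed Rab8 level per length in wild-type and 79.8 ± 1.7% in Ahrr-deficient libraries (SD, n = 3), and these shares overlapped. Of the 75-base stretches of the Rab8b transcript 4.4% also lie in Gm20689.

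Rab10 (ENSMUSG00000020671.9, chr12:3247428-3309969, minus strand), which drives the surface delivery of receptors and transporters, including that of a Toll-like receptor in macrophages, stood at 134, 145 and 136 CPM in the wild-type and 189, 187 and 163 CPM in the Ahrr-deficient libraries. The groups were apart, with a log2 fold change of 0.38 (SE 0.08, adjusted p 0.0176), and an exon of Rab10os overlaps Rab10 on the opposite strand. Rab13 (ENSMUSG00000027935.14, chr3:90213695-90226385, plus strand), a Rab of cell junctions and the leading edge, was scarcer and stood at 6.24, 5.62 and 7.41 CPM in the wild-type and 3.90, 4.04 and 4.03 CPM in the Ahrr-deficient libraries. Its Ahrr-deficient libraries lay close together and below all wild-type ones, with a log2 fold change of -0.68 (SE 0.17, adjusted p 0.0272) that rested on 14 counts in the shallowest library. Rab10 was called in 2, and Rab8b and Rab13 each in 1, of the fits that left out a library, and with DESeq2 the adjusted p of Rab13 was 0.0648.

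The Rab11 genes, the classical markers of recycling endosomes, were among the most even of the family. Rab11a had a log2 fold change of 0.00 with a 95% interval of -0.17 to 0.17, and Rab11b one of -0.06 with -0.28 to 0.15. Rab12 had -0.07 and Rab35, which returns receptors to the surface, 0.16, with adjusted p-values of 0.610 and 0.236. For Rab11b, 8.48% of the 75-base stretches of the transcript also lie in other genes, among them Rab11b-ps2.

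In the late endosome and lysosome group 1 of 5 tested genes passed the threshold, and it was lower. Rab34 (ENSMUSG00000002059.18, chr11:78188430-78192193, plus strand), which takes part in positioning lysosomes near the nucleus and in forming the primary cilium, had the largest fall of the family. It stood at 24.7, 27.6 and 20.8 CPM in the wild-type and 16.7, 13.6 and 14.3 CPM in the Ahrr-deficient libraries. All Ahrr-deficient libraries were below the lowest wild-type library, and the fall from 24.4 ± 3.37 to 14.9 ± 1.61 CPM (SD, n = 3) gave a log2 fold change of -0.75 (SE 0.13, adjusted p 0.00716). Of the 16 alternative fits 15 kept the call, and the exception was the replicate block with GC offsets, at an adjusted p of 0.0624.

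Rab7, which drives fusion of late endosomes and phagosomes with lysosomes and was second in level per length in the mean over all 6 libraries, stood at 226, 228 and 222 CPM in the wild-type and 242, 256 and 244 CPM in the Ahrr-deficient libraries. The Ahrr-deficient libraries were all slightly above the wild-type ones, but the log2 fold change of 0.14 missed the threshold (adjusted p 0.243, 95% interval -0.04 to 0.31). Rab7b, which works from late endosomes to the Golgi, had a log2 fold change of -0.46 (adjusted p 0.0648). Rab9, of transport from late endosomes to the Golgi, and Rab24, linked to autophagy, had -0.32 and -0.03. For Rab7, 12.0% of the 75-base stretches of the transcript also lie in the pseudogene Rab7-ps1.

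The Rabs of regulated secretion and of lysosome-related organelles held called genes in both directions, 2 higher and 2 lower of 7 tested. Rab32 (ENSMUSG00000019832.5, chr10:10545002-10558265, minus strand), which serves lysosome-related organelles and the defence of macrophages against vacuolar bacteria, stood at 92.9, 87.8 and 97.0 CPM in the wild-type and 117, 161 and 132 CPM in the Ahrr-deficient libraries. The Ahrr-deficient libraries were spread more widely than the wild-type ones and all above them, with a log2 fold change of 0.57 (SE 0.12, adjusted p 0.0122). Rab3d (ENSMUSG00000019066.13, chr9:21907491-21918192, minus strand), the main Rab3 of secretory granules outside neurons, stood at 92.3, 81.6 and 99.6 CPM in the wild-type and 113, 124 and 148 CPM in the Ahrr-deficient libraries. Its log2 fold change was 0.50 (SE 0.12, adjusted p 0.0195), and its highest wild-type library was below its lowest Ahrr-deficient one.

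Rab27a (ENSMUSG00000032202.11, chr9:73044854-73097629, plus strand), which docks granules and multivesicular endosomes at the plasma membrane, fell. It stood at 26.1, 24.2 and 28.1 CPM in the wild-type and 18.4, 13.3 and 17.6 CPM in the Ahrr-deficient libraries, with Ahrr-deficient replicate 2 the lowest and no overlap. The mean moved from 26.2 ± 1.95 to 16.4 ± 2.72 CPM (SD, n = 3), and edgeR put the log2 difference at -0.73 (SE 0.14, adjusted p 0.00951). Rab44 (ENSMUSG00000064147.6, chr17:29114145-29148980, plus strand), a large Rab of immune cells linked to granule release in mast cells, stood at 152, 148 and 157 CPM in the wild-type and 113, 101 and 129 CPM in the Ahrr-deficient libraries. All Ahrr-deficient libraries were below the wild-type ones, with a log2 fold change of -0.42 (SE 0.10, adjusted p 0.0205). Without a library, Rab27a kept its call in 5, Rab32 in 4, Rab3d in 3 and Rab44 in 2 of 6 fits, and wild-type replicate 1 was the library whose removal raised the adjusted p of Rab27a to 0.0504.

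Among the relatives of these genes, Rab3a, the synaptic vesicle form, stood at 3.46, 3.16 and 5.07 CPM in the wild-type and 4.46, 2.75 and 3.83 CPM in the Ahrr-deficient libraries and overlapped between groups. Rab3b had 1, 0 and 1 counts in wild-type and 2, 11 and 3 in Ahrr-deficient libraries, too few for the test. Rab3d held 90.4 ± 1.6% of the summed Rab3 level per length in wild-type and 92.9 ± 2.1% in Ahrr-deficient libraries (SD, n = 3). Rab29, of the Rab32 subfamily, had a log2 fold change of -0.32 (adjusted p 0.111) and Rab37 one of -0.63 (adjusted p 0.0800), and for both all Ahrr-deficient libraries were below the wild-type ones. Of the remaining tested genes, Rab23, a regulator of hedgehog signalling, had 0.32, Rab28 0.29 and Rab40c 0.06, none past the threshold.

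**Figure D3:**
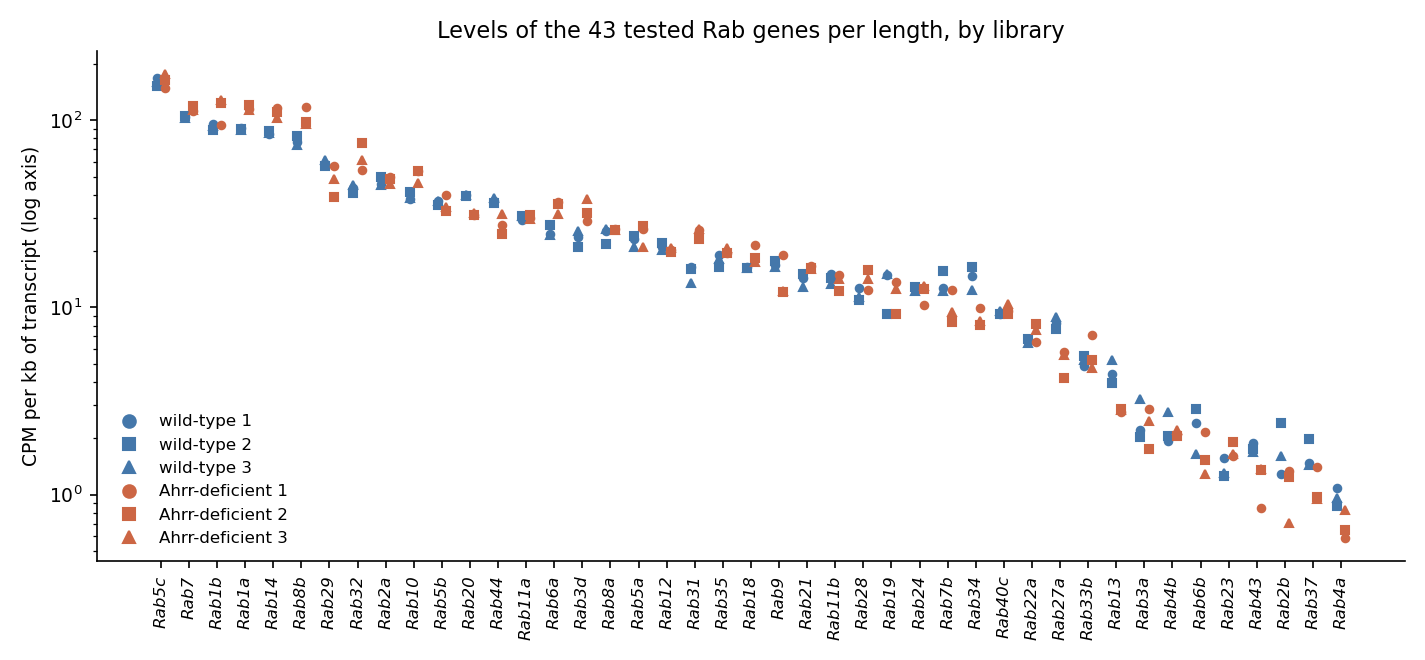
Level of each of the 43 tested Rab genes in each library, as CPM per kb of the longest protein-coding transcript on a log axis, ordered by the mean over all libraries. Rab5c is highest and Rab4a lowest, and wild-type (blue) and Ahrr-deficient (orange) points of 1 gene differ by much less than the family's highest and lowest genes.

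Levels between genes were compared per kb of the longest protein-coding transcript. Rab5c led in each of the 6 libraries, with 161 ± 8.26 in wild-type and 163 ± 13.6 in Ahrr-deficient libraries (CPM per kb, SD, n = 3). Rab7 followed in wild-type libraries, with 104 ± 1.36 in wild-type and 115 ± 3.35 in Ahrr-deficient libraries. Rab1b, Rab1a and Rab14 had wild-type means of 92.5, 89.7 and 85.9 CPM per kb and Ahrr-deficient means of 115, 116 and 110 CPM per kb, and in Ahrr-deficient libraries these 3 genes and Rab7 were too close to order given the spread between libraries. These 5 genes held between 41.4% and 45.2% of the summed Rab level per length of a library. The place of Rab14 depends on the length used, since it ranked 5 by the longest coding transcript and 17 by the union of all annotated exons. At the low end, the 7 untested genes (Rab3b, Rab15, Rab25, Rab36, Rab38, Rab39 and Rab42) had between 0 and 35 counts in a library.

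The proteins that load, switch off, extract and receive the Rabs were counted from the same fit. Of 129 listed genes 122 were among the rows and 116 were tested, of which 23 (19.8%) were called, a share near the background of 19.6%. They divided into 12 higher and 11 lower genes, with a median log2 fold change of 0.03 over the 116. Their summed level was 8229, 8213 and 8258 CPM for wild-type libraries and 8388, 8134 and 8153 CPM for those without Ahrr, which overlapped.

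Of 32 tested activators 4 were higher and 2 lower. Rab3il1, an exchange factor for Rab8 also known as GRAB, stood at 26.7, 24.8 and 25.6 CPM in the wild-type and 31.7, 60.4 and 49.9 CPM in the Ahrr-deficient libraries, with Ahrr-deficient replicate 1 the closest to the wild-type libraries. Its log2 fold change was 0.93 (SE 0.19, adjusted p 0.0130). The DENN-domain exchange factors Dennd4a, which acts on Rab10, and Dennd3, which acts on Rab12, rose by 0.68 and 0.66 on the log2 scale, and Dennd1b, which acts on Rab35, by 0.36. Rin3, an exchange factor for Rab5 and Rab31, fell and stood at 266, 256 and 289 CPM in the wild-type and 209, 141 and 207 CPM in the Ahrr-deficient libraries, with a log2 fold change of -0.55 (SE 0.15, adjusted p 0.0332). Dennd2a, which acts on Rab9, had a log2 fold change of -0.48 (adjusted p 0.0243).

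Of 33 tested inactivators 2 were higher and 3 lower. Evi5, a GAP linked to Rab11, stood at 64.8, 67.6 and 63.5 CPM in the wild-type and 101, 124 and 102 CPM in the Ahrr-deficient libraries, with the groups far apart and a log2 fold change of 0.75 (SE 0.10, adjusted p 0.00276). Tbc1d20, a GAP for Rab1, had a log2 fold change of 0.33 (SE 0.10, adjusted p 0.0403). Lower were Tbc1d8, at -0.80, Tbc1d10a, a GAP for Rab27a, at -0.50, and Tbc1d4, a GAP for Rab10, at -0.47, with adjusted p-values of 0.0133, 0.0103 and 0.0388. In the list of 9 prenylation and extraction factors Chml, a Rab escort protein, rose by 0.41 and Rabac1, a Golgi protein that binds prenylated Rabs, had a log2 fold change of -0.63 (adjusted p 0.0106). Both subunits of the Rab prenyltransferase, Rabggta and Rabggtb, were not past the threshold.

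Effectors and tethers gave 5 higher and 5 lower of 42 tested genes. Lrrk2, a kinase that phosphorylates several Rabs, among them Rab8 and Rab10, and is bound by Rab29 and Rab32, stood at 46.8, 52.7 and 41.7 CPM in the wild-type and 72.7, 79.1 and 65.5 CPM in the Ahrr-deficient libraries. All Ahrr-deficient libraries were above the wild-type ones, with a log2 fold change of 0.63 (SE 0.11, adjusted p 0.00723). Ehbp1, an effector of Rab8 and Rab10, rose by 0.49, and Acap2, an effector of Rab35, by 0.47 on the log2 scale. The Rab5 effectors Appl1 and Appl2 moved in opposite directions: Appl1 stood at 52.6, 50.9 and 52.3 CPM in the wild-type and 69.9, 73.4 and 70.2 CPM in the Ahrr-deficient libraries, with a log2 fold change of 0.46 (SE 0.08, adjusted p 0.00629), and Appl2 at 145, 157 and 151 CPM in the wild-type and 124, 93.2 and 104 CPM in the Ahrr-deficient libraries, with -0.51 (SE 0.11, adjusted p 0.0143). Lower as well were Rab11fip5, a Rab11 effector, at -0.60, Rabep2, a Rab5 effector, at -0.58, and Rilpl2, which binds Rabs phosphorylated by LRRK2, at -0.50, with adjusted p-values of 0.0201, 0.00912 and 0.00758.

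**Figure D4:**
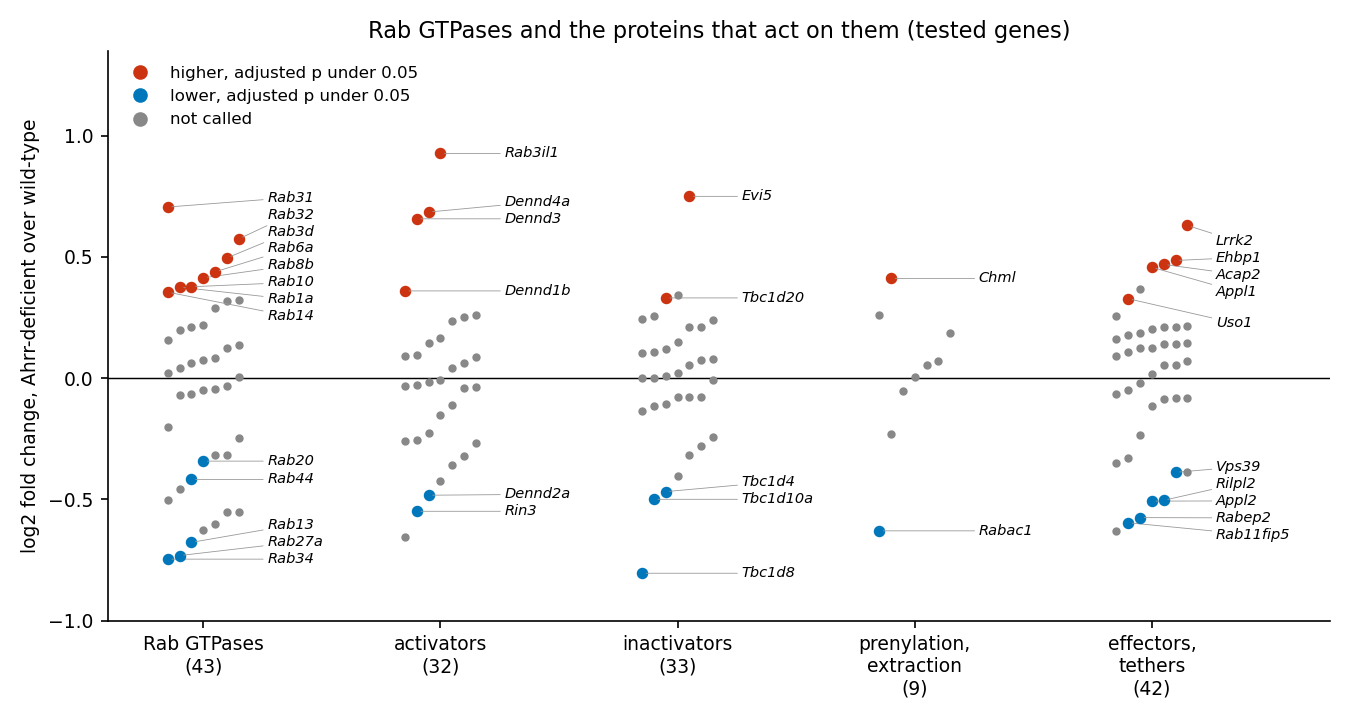
Log2 fold change of the tested Rab GTPases and of the 4 lists of proteins that act on them, 1 point per gene (red higher, blue lower, grey not called), with the number of tested genes in brackets. Called genes stand on both sides of 0 in every list, with Rab3il1 the highest at 0.93 and Tbc1d8 the lowest at -0.80.

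GC content differed between the called Rab genes. The longest transcripts of the 8 higher genes had a median GC content of 44.6% (range 40.6% to 53.2%) and those of the 5 lower genes 56.1% (range 47.0% to 59.5%). Over all called genes these medians were 45.7% for the higher and 53.4% for the lower ones. The Spearman correlation of the log2 fold change with GC content was -0.43 across the 43 tested Rab genes and -0.28 across all 11394 tested genes with a GC value, as a description across genes that share the same 6 libraries. With offsets for GC content, 10 Rab genes were called, 7 higher and 3 lower (background 17.8%), of which 9 were among the 13. Rab1a, Rab8b, Rab20 and Rab44 then missed the threshold, with adjusted p-values of 0.0696, 0.0572, 0.0706 and 0.0572, and Rab1b passed it. Rab31, Rab32, Rab3d, Rab27a and Rab34 had log2 fold changes of 0.70, 0.53, 0.56, -0.79 and -0.58 in that fit. Smaller in size than in the main fit were Rab6a (0.35 from 0.44), Rab10 (0.29 from 0.38) and Rab14 (0.24 from 0.35). The same held for Rab1a (0.25 from 0.38), Rab8b (0.26 from 0.41), Rab20 (-0.22 from -0.34) and Rab44 (-0.29 from -0.42). Rab34 was also smaller than its main value of -0.75. Rab3d and Rab27a were larger than theirs of 0.50 and -0.73, and Rab13 had -0.67 against -0.68. The cause of the relation with GC content was not tested.

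**Figure D5:**
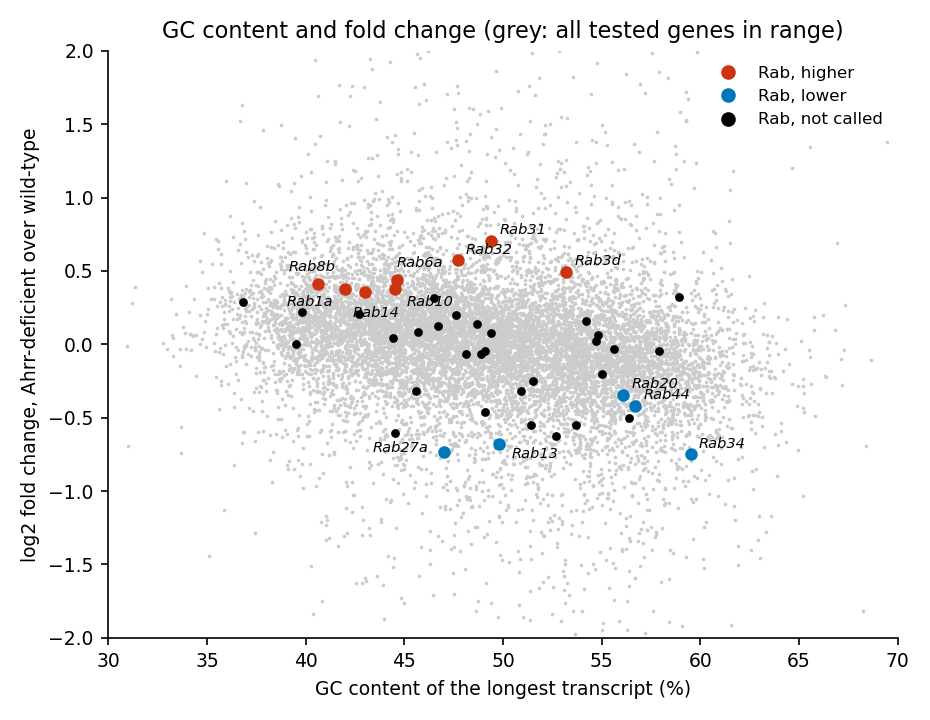
Log2 fold change against the GC content of the longest transcript for Rab genes (red higher, blue lower, black not called) over all tested genes within the axes (grey). The higher Rab genes lie mostly at the left, between 40.6% and 53.2% GC, and 3 of the 5 lower ones (Rab20, Rab44 and Rab34) at the right, between 56.1% and 59.5%.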

How the data were processed

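RNA with poly(A) tails from 3 wild-type and 3 Ahrr-deficient cultures was sequenced as 75-base single-end reads. Per the submitters' processing notes, the tools were CASAVA 1.8.2, fastp 0.20.0, STAR 2.7.10b, SAMtools 1.16.1 and DESeq2 1.40.2 with build mm10. The counting program, annotation and use of strand are not given in the sources used here. The authors deposited whole-number counts for 53465 features without identifiers. They also deposited a table of 16111 named genes holding normalised signal, the counts divided by 1 size factor per library. Multiplying this signal by the size factors gave whole reads for 100% of values (tolerance 0.001), and all 16111 rows of reads were found among the deposited counts, which joined names to counts. Features left without a name, which were not tested in the main fit, held 0.0232% to 0.0511% of the counts.

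Counts were fitted with edgeR 4.0.16 (R 4.3.3, TMM scaling, filterByExpr, genotype only, quasi-likelihood test, Benjamini-Hochberg adjustment, threshold 0.05), and the script was tested on simulated data. TMM factors ranged from 0.904 to 1.04. Levels per kb use the longest protein-coding transcript of GENCODE M21 (GRCm38), which matched 16088 of the genes. Rab genes past the threshold, the 5 highest per length and genes that share a Rab number with a called gene were named with all values. Per regulator list, at most 4 called genes in each direction with a mean of at least 50 counts were named, some by fold change alone. Members and lists were chosen with earlier results of these data known. Alternatives were other scalings and count filters, DESeq2 1.42.0, limma-voom (limma 3.58.1), a replicate block, thinning to 3556106 counts, GC offsets and leaving out each library.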

Additional observations from a re-analysis of the deposited data

How the results depend on the processing

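Of 208 refitted values of the 13 called Rab genes, 147 kept direction and call, 61 kept the direction without the call, and 0 reversed. The labels do not say whether the replicate numbers pair the libraries. Same-numbered deviations from the group means correlated at -0.169, 0.0714 and 0.129, and differently numbered ones at -0.214 to 0.163. Of the wild-type libraries, 1 of 3 correlated best with its own number. With 3 libraries per group, these values cannot decide whether the numbers pair the libraries. With the replicate block, 9 of 43 Rab genes (6 higher, 3 lower), 1390 of 11408 genes (12.2%) and 17 of 116 regulators were called. With the block and GC offsets, 6 of 43 Rab genes, 1245 of 11394 genes and 14 of 116 regulators were called, and the Rab median was 0.047. Thinned to the smallest total, 8 of 41 tested Rab genes (6 higher, 2 lower) and 1265 of 10289 tested genes were called. The Rab median log2 fold change was -0.00857 with upper-quartile scaling, 0.0407 over genes averaging 50 counts or more, and 0.0633 with GC offsets. Leaving out 1 library gave 2 (without wild-type replicate 1) to 22 (without Ahrr-deficient replicate 1) called Rab genes, of 42 and 44 tested. In the same fits 694 of 11427 genes (6.07%) and 3857 of 11837 genes (32.6%) were called, with 6 of 117 and 40 of 118 regulators. Over all fits without 1 library, the Rab median was 7.26e-05 to 0.0292. Such fits leave 1 group with 2 libraries, and the cause of their differences was not tested. Without a filter on low counts 18 of 50 Rab genes and 2859 of 24416 features were called. These features include unnamed ones with fewer than 10 counts in total, whereas the 50 Rab genes are all named rows. With DESeq2, 12 of the 13 called Rab genes were shared. The 7 untested genes had between 4 and 35 counts in the deepest library, Ahrr-deficient replicate 2. Of the 30 genes not called, 16 have a 95% interval within 0.5 of 0.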

Other observations

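The direction of the Rab changes went with the wild-type CPM of the gene, a pattern noticed after the values were seen. CPM is not divided by transcript length here, so it ranks genes by read number. Among the 20 tested Rab genes with the highest wild-type CPM (at least 60.9), 7 were called higher and 1 lower, and 15 had a log2 fold change above 0. Among the other 23 tested genes 1 was called higher and 4 lower, and 8 lay above 0. By mean level per kb over all libraries, the higher genes ranked between 4 (Rab1a) and 20 (Rab31). The lower genes ranked 12 (Rab20), 13 (Rab44), 30 (Rab34), 33 (Rab27a) and 35 (Rab13). Of all tested genes at any level, 9.62% were called higher and 9.95% lower, and shares at matched levels were not computed. The Spearman correlation of wild-type CPM with the log2 fold change was 0.534 across the 43 Rab genes and 0.00608 across all 11408 tested genes. It is a description across genes of the same 6 libraries, and the wild-type CPM enters both measures.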
